A study of Homo sapiens with 24 samples.

Results

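The comparison described here is the combined knockdown of ZFX and ZNF593 in LN-229 cells. LN-229 is an established human glioblastoma line, and all libraries used here come from this 1 line, labelled wild type. The members are the 3 libraries of cells treated with siZFX and siZNF593 together, called the double knockdown, and the 3 libraries of cells treated with the control siRNA set titled siControl_2, 6 of the 24 libraries of the series. They were chosen by their titles, and 17685 of the 58721 gene IDs passed an expression filter and were tested. Cells treated with siZFX alone, siZNF593 alone and the other control set, titled siControl, 3 libraries each, are used beside them. The labels give neither the time after transfection nor the siRNA sequences. The treatment is labelled siControl in both control sets, and what sets siControl_2 apart from siControl is not stated. The design text calls the libraries of a group biological replicates. The p-values rest on the spread between libraries within groups, estimated over all 15 LN-229 libraries together.

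ZFX is a zinc finger transcription factor encoded on the X chromosome, known to bind downstream of the start sites of many CpG island genes and to act mainly as an activator. ZNF593 is a small zinc finger protein found in the nucleolus, whose yeast homologue Bud20 takes part in export of the large ribosomal subunit. Many of the genes described below are targets of NF-kB, a family of dimeric factors that is held in the cytoplasm by inhibitor proteins and, once released, switches on chemokines, cytokines, adhesion molecules and its own inhibitors. Glioblastoma cells often express these genes without added stimulus.

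Gene counts were 24462098, 25799679 and 24349266 reads in double knockdown libraries 1 to 3, against 22808382, 20111290 and 20245440 in siControl_2. Library 3 of the double knockdown stood apart from the other two: the Pearson correlation over tested genes was 0.970 with each of them, against 0.986 between libraries 1 and 2 and 0.979 to 0.990 within the other LN-229 groups. Its departure followed base composition. Among genes of 5 CPM (counts scaled to a common library total) or more, its median log2 deviation from the group mean was 0.156 for genes under 40% GC and -0.629 for genes of 65% GC or more. The 3 siControl_2 libraries stayed within 0.066 of their group mean in each GC class. The median log2 change of the comparison fell along the same axis, 0.157 in the lowest GC class and -0.455 in the highest, and was 0.080 and -0.189 without library 3. With offsets for GC content and length, 169 recomputed values of the genes named by rule kept direction and call and 3 lost the call. Counts that matter are given without library 3 as well.

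**Figure D1:**
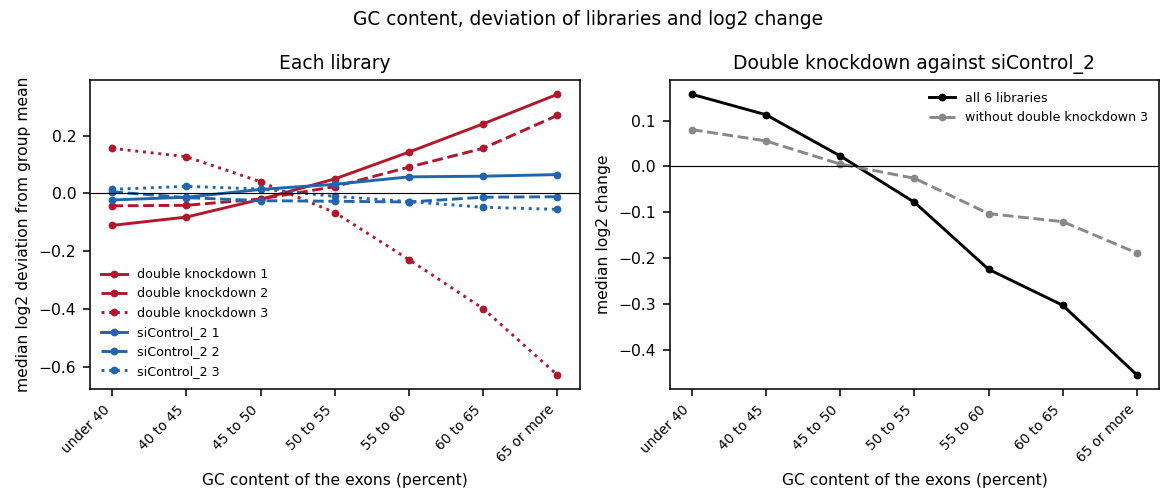
Left, the median log2 deviation of each library from its group mean, by GC content of the exons in percent, for the 3 double knockdown libraries and the 3 siControl_2 libraries. Right, the median log2 change of the double knockdown against siControl_2 in the same GC classes, with all 6 libraries and without double knockdown 3, which lies apart at both ends of the scale.

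The cells carried some markers of a glioma line and lacked others. AQP4, ALDH1L1 and CHI3L1 of the astrocyte and glioma list had at most 2, 3 and 2 reads in any of the 6 libraries. MOBP of the oligodendrocyte list had 0. Of these lists, 12 of 16 and 16 of 19 genes passed the filter. S100B, a calcium-binding protein of glia, had 453, 464 and 587 CPM in the double knockdown and 591, 522 and 581 CPM in siControl_2. SOX10, a factor of the oligodendrocyte lineage, had 1021, 1011 and 732 CPM in the double knockdown and 1362, 1305 and 1331 CPM in siControl_2. No read was counted in any of the 6 libraries for the microglial genes AIF1, TYROBP, C1QA and C1QC, the endothelial genes CDH5 and ERG or the epithelial genes EPCAM, KRT19 and GRHL2. Of the listed markers, 3 of 14 microglial, 7 of 10 endothelial and 5 of 12 epithelial genes passed the filter. Their summed levels in the double knockdown against siControl_2 ranged over 1.52 to 2.72 against 0.869 to 1.98 CPM for microglia, 7.18 to 13.6 against 28.7 to 34.9 CPM for endothelium and 36.1 to 44.5 against 54.95 to 59.3 CPM for epithelium. EGFL7, which encodes a secreted protein of vessels, made up most of the endothelial sum. EGFL7 had 7.78, 8.63 and 4.43 CPM in the double knockdown and 30.4, 27.9 and 23.8 CPM in siControl_2. Not all members of these lists went down. The endothelial gene ESAM had 3.23, 3.41 and 1.73 CPM in the double knockdown and 1.15, 2.01 and 1.43 CPM in siControl_2. The epithelial gene OCLN had 66, 57 and 114 reads in the double knockdown and 33, 48 and 30 reads in siControl_2.

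Both targeted genes were lower in every double knockdown library. ZFX had 24.1, 28.6 and 27.2 CPM in the double knockdown, against 48.8, 56.1 and 55.8 CPM in siControl_2, a log2 change of -1.01 (SE 0.12, edgeR adjusted p = 9.5e-07). ZFX was less depleted than in cells given siZFX alone, where its log2 change against siControl was -1.66; the difference between the 2 effects was 0.65 (SE 0.17, adjusted p = 0.0111). ZNF593 had 2.83, 3.67 and 2.82 CPM in the double knockdown, against 40.3, 34.4 and 33.3 CPM in siControl_2, a log2 change of -3.53 (SE 0.16, adjusted p = 1.6e-13). With siZNF593 alone the change was -3.94. ZNF593 overlaps an antisense gene, and its value sums the reads of both strands, which cannot be told apart here.

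A gene is called where the Benjamini-Hochberg adjusted p of edgeR's quasi-likelihood test, over all 17685 genes, is at most 0.05. By this rule 3117 genes (17.6%) rose and 3635 genes (20.6%) fell in the double knockdown, 38.2% in either direction. A change of at least 2-fold was reached by 573 of the genes that rose (3.24% of all tested) and 920 of those that fell (5.2%). Of at least 8-fold, there were 26 and 64. In 6395 of the called genes (94.7%) the 3 double knockdown libraries lay wholly above or wholly below the 3 siControl_2 libraries, as did 21.4% of all tested genes above and 24.2% below. Without library 3, 2701 of the genes that rose (86.7%) and 3267 of those that fell (89.9%) were still called; in that fit 17.9% of genes rose and 20.4% fell. Some genes given by library here share exon bases with another annotated gene, so their values are less certain. Protein-coding or pseudogene partners overlap BAK1, CHAF1B, COL18A1, DNAJB4, ETV5, GFAP, MYRF, RPL22 and SOX10, and mainly non-coding or antisense partners overlap ZFX, LIF, TNFAIP3, ICAM1, RELA, COL4A2, CDKN1A, HMGCS1, EGFR, AXL, SMO, CSPG4, NQO1, ISG15 and MX1. NGFR, PGM2L1, TRPM8, LTBP1 and COL3A1 also overlap other annotated genes.

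The choice of control set mattered for part of these calls. Against siControl, 3315 genes (18.7%) rose and 3885 (22.0%) fell, 40.7% in either direction. Against both control sets, 2187 genes (12.4%) rose and 2810 (15.9%) fell, which is 70.2% and 77.3% of the calls against siControl_2; both comparisons use the same double knockdown libraries. The control sets also differed from each other, with 961 genes (5.43%) higher and 863 (4.88%) lower in siControl_2 than in siControl. The direction turned for 40 of the genes that rose and 55 of those that fell. The value against siControl is therefore set beside that against siControl_2 for a number of the genes below.

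The 15 leading falls are the largest among protein-coding genes that average 5 CPM or more across the 6 libraries, with groups that do not overlap and a call in the same direction against siControl as well. This rule, met by 2361 falls and 1676 rises, fixes the separation of the groups and the call against siControl for every leading gene. CXCL1 (ENSG00000163739.4, chr4:73869393-73871242, GRCh38), a neutrophil chemokine, had 3.55, 5.03 and 1.84 CPM in the double knockdown, against 139.9, 131 and 153 CPM in siControl_2. Its log2 change was -5.34 (SE 0.22, adjusted p = 9.4e-11), the largest fall of the rule. CXCL8 (ENSG00000169429.10, chr4:73740506-73743716), the interleukin-8 gene of the same cluster, had 4.95, 3.52 and 6.90 CPM in the double knockdown, against 104, 107 and 117 CPM in siControl_2 (log2 change -4.41, SE 0.16, adjusted p = 1.9e-13). TNFAIP2 (ENSG00000185215.8, chr14:103123442-103137439), a gene induced by tumour necrosis factor, had 0.479, 0.833 and 0.745 CPM in the double knockdown, against 11.4, 13.3 and 10.2 CPM in siControl_2 (log2 change -4.07, SE 0.24, adjusted p = 1.7e-11). The siControl libraries lay between the 2 groups, with 42.0, 46.9 and 41.8 CPM of CXCL1, 33.7, 38.2 and 33.0 CPM of CXCL8 and 5.44, 4.47 and 4.18 CPM of TNFAIP2. Against siControl the log2 changes were therefore smaller, -3.64 for CXCL1, -2.77 for CXCL8 and -2.76 for TNFAIP2.

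The promoters of these 3 genes are shown because each holds the letters of an NF-kB element, GGNNTTTCC, printed in capitals. The sequences are RefSeq windows on GRCh38.p14, 250 bases before to 50 bases after the start, 5′ to 3′ on the gene's strand: chr4:73869143-73869442 for CXCL1, chr4:73740319-73740618 for CXCL8 and chr14:103123211-103123510 for TNFAIP2, all on the plus strand.
CXCL1: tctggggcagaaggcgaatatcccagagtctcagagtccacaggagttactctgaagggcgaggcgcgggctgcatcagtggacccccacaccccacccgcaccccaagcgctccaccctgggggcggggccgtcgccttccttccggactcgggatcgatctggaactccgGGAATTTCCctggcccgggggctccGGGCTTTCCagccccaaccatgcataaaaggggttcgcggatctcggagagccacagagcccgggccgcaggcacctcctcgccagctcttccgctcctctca
CXCL8: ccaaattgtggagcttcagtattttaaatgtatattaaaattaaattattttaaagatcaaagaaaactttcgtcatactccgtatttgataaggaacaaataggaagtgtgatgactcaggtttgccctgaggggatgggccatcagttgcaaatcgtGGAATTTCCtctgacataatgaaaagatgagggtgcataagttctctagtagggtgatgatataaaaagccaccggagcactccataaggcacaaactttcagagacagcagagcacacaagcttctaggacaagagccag
TNFAIP2: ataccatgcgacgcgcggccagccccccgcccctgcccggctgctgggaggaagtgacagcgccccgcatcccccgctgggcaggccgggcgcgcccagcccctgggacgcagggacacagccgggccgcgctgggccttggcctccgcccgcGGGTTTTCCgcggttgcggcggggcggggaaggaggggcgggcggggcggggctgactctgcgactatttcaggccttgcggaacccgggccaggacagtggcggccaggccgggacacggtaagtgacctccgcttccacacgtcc
In CXCL1 the matches begin 78 and 53 bases before the start, in CXCL8 91 bases and in TNFAIP2 97 bases before it. Searched on both strands, the letters occurred in 9 of the 14 NF-kB cytokine and adhesion targets that fell and have a window in the table (64.3%), in 10 of the 17 tested targets with one (58.8%) and in 6.6% of the 12009 tested genes with one. Neither the gene choice nor the letters are independent of what is known of these targets, and a match is a description, not a binding site.

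The other leading falls belonged to no single family. BAHCC1, which encodes a chromatin reader, had 1.16, 0.908 and 0.431 CPM in the double knockdown, against 24.2, 22.0 and 20.7 CPM in siControl_2 (log2 change -4.74, SE 0.24, adjusted p = 1.6e-12); its exons overlap those of 2 other annotated genes. CITED4, a co-activator binding CBP and p300, had 2.79, 3.97 and 0.627 CPM in the double knockdown, against 37.2, 30.2 and 32.6 CPM in siControl_2 (log2 change -3.75, SE 0.36), with library 3 the lowest. HINT1, a nucleotide hydrolase, was the most abundant of the 15, at 50.6, 54.4 and 60.3 CPM in the double knockdown, against 331, 298 and 315 CPM in siControl_2 (log2 change -2.51, SE 0.08). SLC39A14, the metal importer ZIP14, had 24.9, 26.1 and 27.3 CPM in the double knockdown, against 155, 137 and 143 CPM in siControl_2 (log2 change -2.47, SE 0.09). These were tight falls, with the groups more than 100 CPM apart for both.

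POSTN, the matrix protein periostin, had 3.11, 2.91 and 3.80 CPM in the double knockdown, against 19.4, 16.3 and 19.4 CPM in siControl_2, a log2 change of -2.48 (SE 0.18). Against siControl, with 6.57, 6.36 and 5.17 CPM, its fall was smaller, -0.88 on the log2 scale. The remaining falls of the 15, beside ZNF593 itself, were GOLGA7B, SLC25A43, CEP112, PELI3, BST2 and FBXO44, with folds between 5.53 and 6.74. GOLGA7B changed by -2.75 on the log2 scale against siControl_2 and by -1.62 against siControl. SLC25A43 encodes a mitochondrial carrier, CEP112 a centrosomal protein, PELI3 a ubiquitin ligase of Toll-like receptor signalling and FBXO44 a ubiquitin ligase subunit. Each of the 15 was also called lower without library 3, and 6 of them overlap exons of another gene.

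The 15 leading rises were smaller, 2.79-fold to 7.73-fold. OASL (ENSG00000135114.12, chr12:121019111-121039242), an interferon-induced relative of the oligoadenylate synthetases, had 10.2, 11.5 and 13.2 CPM in the double knockdown, against 0.784, 1.66 and 2.10 CPM in siControl_2 (log2 change 2.95, SE 0.25, adjusted p = 3.7e-09). PLPPR4, a membrane protein related to lipid phosphatases and known from neurons, had 8.26, 6.40 and 11.2 CPM in the double knockdown, against 1.43, 1.86 and 1.48 CPM in siControl_2 (log2 change 2.44, SE 0.35). PGM2L1, glucose-1,6-bisphosphate synthase, had 77.1, 82.0 and 103 CPM in the double knockdown, against 19.3, 18.2 and 19.7 CPM in siControl_2 (log2 change 2.20, SE 0.10). Library 3 of the double knockdown was the highest for all 3 genes.

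Several further rises were genes of the cell surface. TRPM8, the cold-sensing ion channel, had 39.5, 39.6 and 53.4 CPM in the double knockdown, against 11.1, 9.53 and 12.02 CPM in siControl_2 (log2 change 2.02, SE 0.14). SEMA7A, a membrane-anchored semaphorin, had 124, 106 and 101 CPM in the double knockdown, against 29.1, 31.3 and 26.0 CPM in siControl_2 (log2 change 1.93, SE 0.10), and its log2 change against siControl was 1.17. NGFR, the low-affinity neurotrophin receptor p75, was the most abundant, at 719, 647 and 440.3 CPM in the double knockdown, against 227, 210.2 and 208 CPM in siControl_2 (log2 change 1.48, SE 0.13). NGFR was lowest in library 3, and its log2 change against siControl was 0.90. LTBP1, which binds latent TGF-beta in the matrix, had 91.5, 99.8 and 108 CPM in the double knockdown, against 30.6, 32.5 and 33.6 CPM in siControl_2 (log2 change 1.63, SE 0.09). The others were MYORG, FGFBP3, CGN, DEPDC7, CCN3, FOXL3, HHLA3 and SAMD12. MYORG changed by 2.12 on the log2 scale against siControl_2 and by 1.37 against siControl. Each of the 15 rises was also called without library 3, and 5 of them overlap exons of another gene.

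**Figure D2:**
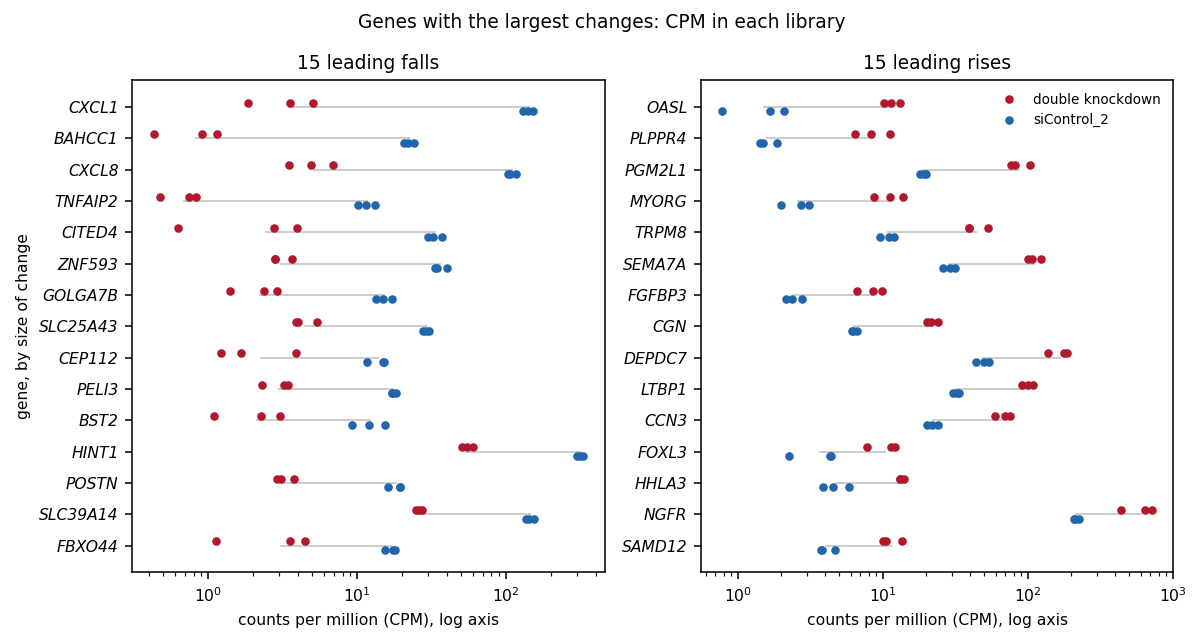
CPM on a log axis for the 15 leading falls (left) and 15 leading rises (right), 1 dot per library, with the double knockdown above siControl_2 in each row and a line between the group means. Rows were chosen for groups that do not overlap, and the falls reach 40.5-fold while the rises reach 7.73-fold.

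The NF-kB cytokine and adhesion targets fell as a group. Of 36 listed genes 22 were tested, and 18 of these fell, beside 20.6% of all genes. By edgeR 0 rose, as at an unadjusted p under 0.05 and with DESeq2, and without library 3 there were 1 rise and 16 falls. Their median log2 change was -1.77, beside 0.006 over all genes, and their summed level was 377, 424 and 325 CPM in the double knockdown, against 1080, 994 and 1091 CPM in siControl_2. The 4 members that did not pass were IL1A, IL6, IL11 and MMP3. The list was written knowing that inflammatory genes move in this comparison, so its count is no independent evidence.

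Part of this fall depended on the control set. In siControl the summed level was 650.4, 699 and 675 CPM, and 11 of the 22 genes were higher in siControl_2 than in siControl by edgeR, with 0 lower (1 at an unadjusted p under 0.05). Against siControl, 11 of the 22 fell and 1 rose, with a median log2 change of -0.98, and the 11 that fell there also fell against siControl_2. LIF, a cytokine of the interleukin-6 family, was as high in siControl as in siControl_2. LIF had 65.3, 70.3 and 36.7 CPM in the double knockdown, against 258, 251 and 253 CPM in siControl_2 and 259.9, 287 and 291 CPM in siControl. It fell against both, by -2.15 (SE 0.18) and -2.28 on the log2 scale. CSF1, PTX3, IL1B, IL32, CCL20, CXCL3 and TNFAIP3 were further members lower against both sets. TNFAIP3, the A20 feedback inhibitor, had 4.51, 6.55 and 4.90 CPM in the double knockdown, against 13.97, 12.3 and 12.7 CPM in siControl_2 and 7.45, 8.08 and 8.67 CPM in siControl.

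Other members were called lower only against siControl_2. ICAM1, an adhesion molecule for leukocytes, had 23.4, 24.4 and 16.4 CPM in the double knockdown, against 50.02, 45.2 and 44.8 CPM in siControl_2 and 18.4, 17.8 and 18.7 CPM in siControl. Its log2 change was -1.13 (adjusted p = 1.1e-06) against siControl_2 and 0.23, not called, against siControl. SOD2, PTGS2, BIRC3, C3 and LCN2 were likewise called against siControl_2 alone. LCN2, at under 1 CPM, changed by -1.37 on the log2 scale against siControl without a call. CCL2, the monocyte chemokine, had 165, 204 and 183 CPM in the double knockdown, against 275, 220.5 and 282 CPM in siControl_2 and 130.4, 143 and 119 CPM in siControl. CCL2 therefore fell by 0.49 on the log2 scale against siControl_2 (adjusted p = 0.00219) and rose by 0.49 against siControl.

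**Figure D3:**
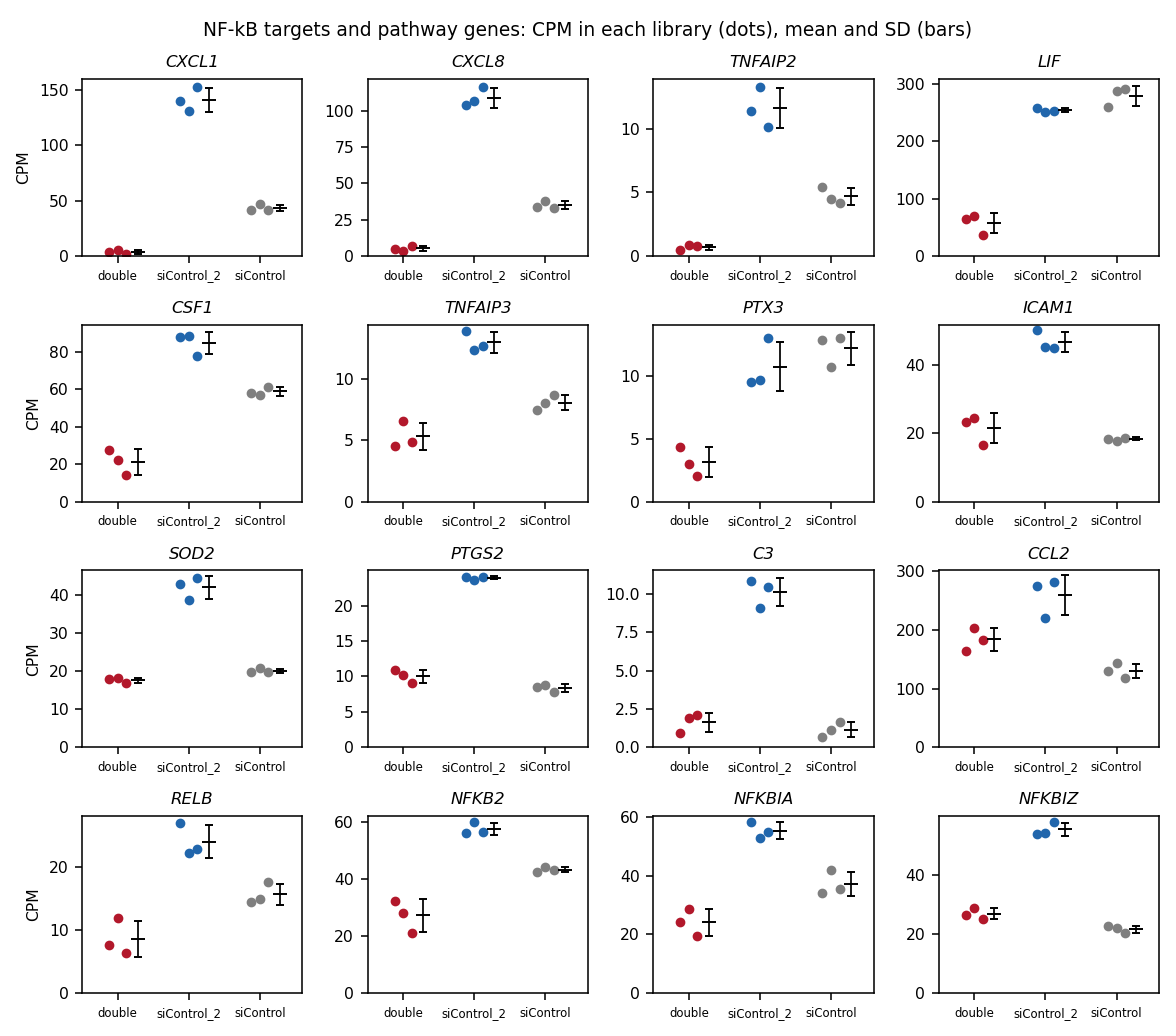
CPM of 16 NF-kB targets and pathway genes in the double knockdown, siControl_2 and siControl, 1 dot per library in replicate order, with mean and SD (n = 3 each) beside the dots. CXCL1, CXCL8, TNFAIP2, LIF, CSF1, TNFAIP3 and PTX3 are lowest in the double knockdown, while ICAM1, SOD2, PTGS2, C3, CCL2 and NFKBIZ in siControl are near or below it.

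The genes of the pathway itself moved in the same direction by smaller amounts. Of 25 subunits, kinases and inhibitors tested, 2 rose and 15 fell against siControl_2, beside 17.6% and 20.6% of all genes. The median log2 change was -0.58, and 12 of the falls were also called against siControl. RELB, a subunit of the non-canonical pathway, had 7.66, 11.8 and 6.31 CPM in the double knockdown, against 27.0, 22.2 and 22.8 CPM in siControl_2 (log2 change -1.48, SE 0.17, adjusted p = 2.7e-07), and changed by -0.86 against siControl. NFKBIA, the inhibitor IkB-alpha and a classical target of its own pathway, had 24.2, 28.6 and 19.5 CPM in the double knockdown, against 58.4, 52.8 and 54.9 CPM in siControl_2 (log2 change -1.20, SE 0.12), and changed by -0.62 against siControl. NFKB2 changed by -1.08 (-0.67 against siControl) and TRAF3, an adaptor that restrains the non-canonical kinase, by -1.04; all 4 were called against siControl too. RELA, the main activating subunit, did not pass the test, at 114, 111 and 66.6 CPM in the double knockdown and 101, 107 and 100.3 CPM in siControl_2. NFKBIZ, a nuclear inhibitor-like protein, changed by -1.05 against siControl_2 and by 0.31 against siControl, called in opposite directions. The median GC content of the list was 57.1%, above the 48.0% of all genes, and without library 3 the counts were 2 and 15.

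Interferon-induced genes did not move as 1 block. Of 43 tested, 10 rose and 11 fell (23.3% and 25.6%), with a median log2 change of -0.10. Over all genes 17.6% rose and 20.6% fell, so both shares were near those of all genes. With siControl as the control 14 rose and 6 fell, beside 18.7% and 22.0% of all genes. Against both sets 10 rose and 6 fell. Beside OASL, the genes that rose against both included IFI44L (log2 change 1.04), IFI44 (0.83), SAMD9L (0.80), STAT2 (0.75) and IRF7 (0.61), of which STAT2 is a subunit of the interferon-activated factor and IRF7 an inducer of interferon genes. BST2, the tetherin that holds budding virions at the cell surface, went the other way, at 3.03, 2.27 and 1.10 CPM in the double knockdown, against 15.4, 12.04 and 9.31 CPM in siControl_2 (log2 change -2.52, SE 0.27, adjusted p = 1.4e-07). In siControl it had 5.51, 4.50 and 4.05 CPM, and the log2 change against that set was -1.14. GBP1 changed by -1.07 and CMPK2 by -1.20, both called against siControl too. Of the widely used interferon markers, ISG15 and MX1 showed no call. ISG15 had 10.5, 7.30 and 6.16 CPM in the double knockdown and 12.9, 9.23 and 5.78 CPM in siControl_2. MX1 had 2.67, 2.95 and 3.84 CPM in the double knockdown and 5.03, 3.66 and 3.37 CPM in siControl_2. Other such markers were called against siControl_2 in either direction, among them IFIT3 (log2 change 0.42) and IFI6 (-0.69).

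The BST2 promoter is shown because it holds the letters of an interferon-stimulated response element, GAAANNGAAA, which occur in genes of the list that fell and in genes that rose. The window is chr19:17405581-17405880 on the minus strand (RefSeq, GRCh38.p14), printed 5′ to 3′ along the gene with the matches in capitals.
BST2: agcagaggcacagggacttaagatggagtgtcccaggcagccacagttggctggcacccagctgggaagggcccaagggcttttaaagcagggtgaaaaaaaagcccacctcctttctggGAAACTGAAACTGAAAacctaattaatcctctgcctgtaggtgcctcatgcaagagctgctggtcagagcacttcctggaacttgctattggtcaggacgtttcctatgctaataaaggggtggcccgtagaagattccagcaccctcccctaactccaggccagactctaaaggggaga
The 2 matches overlap, beginning 130 and 124 bases before the start. On both strands the letters occurred in 21 of 33 interferon-induced genes with a window (63.6%), in 8 of the 9 with a window that fell (88.9%), in 6 of the 8 with a window that rose (75.0%) and in 2.94% of all 12009. As with the NF-kB letters, neither the gene choice nor the letters are independent of what is known of these genes. A match is again a description, not a binding site.

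Extracellular matrix genes were divided by compartment. Of 20 basement membrane and laminin genes tested, 11 fell, beside 20.6% of all genes, with a median log2 change of -0.34. Of these, 7 also fell against siControl. By edgeR 0 rose, as at an unadjusted p under 0.05 and with DESeq2, while against siControl 1 rose and 10 fell. LAMC1, the laminin gamma-1 chain, had 761, 730.4 and 766 CPM in the double knockdown, against 1558, 1559.6 and 1598 CPM in siControl_2 and 1121, 1110.5 and 1052 CPM in siControl, a log2 change of -1.06 (SE 0.06, adjusted p = 6.2e-12). The 3 groups of LAMC1 values did not overlap. COL4A2, a chain of collagen IV, had 401, 340.3 and 209 CPM in the double knockdown, against 617, 589.7 and 541 CPM in siControl_2 (log2 change -0.88, SE 0.18), and COL18A1 had 156, 143 and 56.9 CPM in the double knockdown, against 294, 292 and 258 CPM in siControl_2. Library 3 was the lowest for both collagens. LAMA5 changed by -1.16 against siControl_2 and by 0.083 against siControl.

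Interstitial matrix genes were mixed, with 7 rising and 14 falling of 32, beside 17.6% and 20.6% of all genes. With siControl as the control these counts were 12 and 10. The fibrillar collagen gene COL3A1 had 0.638, 1.63 and 0.823 CPM in the double knockdown, against 7.65, 7.48 and 8.64 CPM in siControl_2 but 1.35, 1.10 and 1.68 CPM in siControl. Its log2 change was -2.93 against siControl_2 and -0.40, not called, against siControl. BGN, the proteoglycan biglycan, followed the same pattern, at 9.53, 7.80 and 7.80 CPM in the double knockdown, 22.6, 21.7 and 24.6 CPM in siControl_2 and 8.98, 11.0 and 9.44 CPM in siControl. CCN3, a matricellular signalling protein, rose against both, at 59.0, 69.5 and 75.2 CPM in the double knockdown, against 21.9, 20.1 and 24.2 CPM in siControl_2 and 17.8, 18.1 and 17.2 CPM in siControl.

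Cell cycle genes fell more often than they rose, and many members had no call. Of 49 DNA replication genes 5 rose and 23 fell, beside 17.6% and 20.6% of all genes, all 23 also against siControl, with a median log2 change of -0.18. Of 45 genes of G2/M and mitosis 2 rose and 24 fell, 23 also against siControl, with a median of -0.24. CCNE1, cyclin E1, which drives entry into S phase, had 4.79, 5.49 and 2.86 CPM in the double knockdown, against 16.1, 12.4 and 14.2 CPM in siControl_2 (log2 change -1.70, SE 0.20, adjusted p = 6.2e-07). CHAF1B, a subunit of the replication-coupled histone chaperone, had 8.38, 9.99 and 7.999 CPM in the double knockdown, against 23.3, 25.2 and 22.5 CPM in siControl_2 (log2 change -1.43, SE 0.13). MKI67, the Ki-67 proliferation antigen, had 356, 332 and 324 CPM in the double knockdown, against 498, 538 and 539 CPM in siControl_2 (log2 change -0.64, SE 0.07). PRIM1, the DNA primase small subunit, rose by 0.88 on the log2 scale, but its exons overlap other genes and it was not called against siControl. In bulk RNA, a lower share of cycling cells and less mRNA per cell cannot be told apart.

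Apoptosis genes of the BCL2 family included 8 falls and 1 rise among 17 tested, beside 20.6% and 17.6% of all genes. The rise and 5 of the falls were shared by both control sets. BAK1, a pore-forming effector, had 11.2, 12.3 and 7.10 CPM in the double knockdown, against 29.9, 23.9 and 24.8 CPM in siControl_2 (log2 change -1.36, SE 0.15, adjusted p = 2.9e-07). BID, its activator, had 13.2, 16.5 and 15.1 CPM in the double knockdown, against 30.4, 25.3 and 27.4 CPM in siControl_2 (log2 change -0.89, SE 0.12). Both are pro-apoptotic, as is BAD (log2 change -1.76), whose exons overlap GPR137. The rise was also of a pro-apoptotic gene, BMF (log2 change 0.72, 1.54 against siControl), and the falls included the survival genes BCL2 (-0.57) and BCL2A1 (-0.67, but 0.28, not called, against siControl). Of 24 p53 targets 1 rose and 9 fell (3 and 9 without library 3), and CDKN1A, the cell cycle inhibitor p21, had no call at 175, 173 and 118 CPM in the double knockdown and 188, 168 and 170.3 CPM in siControl_2.

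Stress-response genes fell more often than they rose. Of 25 heat shock chaperones 2 rose and 13 fell, beside 17.6% and 20.6% of all genes. All 13 also fell against siControl, and the median log2 change of the list was -0.31. HSPB8, a small heat shock protein of chaperone-assisted autophagy, had 6.26, 5.26 and 3.29 CPM in the double knockdown, against 24.0, 24.8 and 26.7 CPM in siControl_2 (log2 change -2.35, SE 0.16, adjusted p = 2e-10). DNAJB4, a co-chaperone, rose, at 28.6, 28.99 and 38.8 CPM in the double knockdown, against 17.4, 21.5 and 16.1 CPM in siControl_2. Of 30 ATF4 targets 6 rose and 12 fell, and of 24 endoplasmic reticulum chaperones 3 rose and 13 fell, 7 of them against both sets. TRIB3, a pseudokinase induced by ATF4, had 22.8, 19.5 and 18.5 CPM in the double knockdown, against 62.1, 51.9 and 58.8 CPM in siControl_2 (log2 change -1.51, SE 0.10). STC2, a secreted glycoprotein, had 71.2, 88.9 and 54.3 CPM in the double knockdown, against 22.8, 23.03 and 22.5 CPM in siControl_2 but 85.0, 90.8 and 93.5 CPM in siControl. STC2 was thus called higher against siControl_2 (log2 change 1.65) and lower against siControl (-0.33).

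Cholesterol synthesis and uptake was the list with the largest share of rises among those with 12 or more tested members, in this comparison. Of 30 genes 13 rose and 5 fell, beside 17.6% and 20.6% of all genes, with a median log2 change of 0.15, and all 13 rises were also called against siControl. HMGCS1, which makes HMG-CoA, had 133, 138 and 154 CPM in the double knockdown, against 79.9, 77.6 and 81.1 CPM in siControl_2 (log2 change 0.83, SE 0.07, adjusted p = 3.2e-09). HSD17B7, a later enzyme of the pathway, had 38.2, 39.96 and 54.9 CPM in the double knockdown, against 20.8, 21.2 and 22.4 CPM in siControl_2 (log2 change 1.05, SE 0.12). ABCG1, a cholesterol exporter that oxysterols induce, fell, at 3.19, 5.34 and 4.78 CPM in the double knockdown, against 13.3, 12.2 and 11.9 CPM in siControl_2 (log2 change -1.49, SE 0.19).

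**Figure D4:**
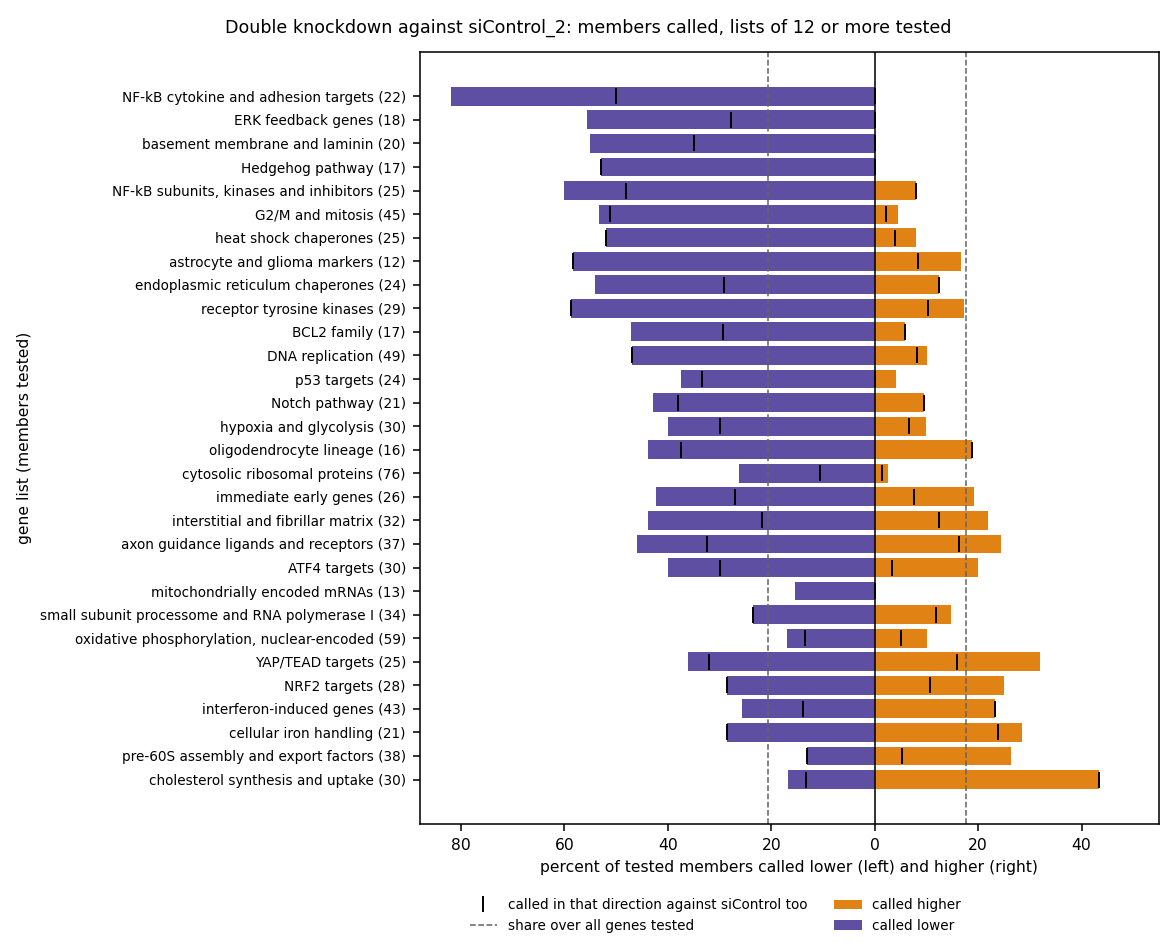
Percent of tested members called lower (left, purple) and higher (right, orange) in the double knockdown against siControl_2, for the 30 of 34 gene lists with 12 or more tested members, with black ticks for members called the same way against siControl too. Dashed lines mark the shares over all genes, 20.6% lower and 17.6% higher, and cholesterol synthesis is the bar that reaches farthest to the right.

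Without double knockdown library 3, 17.9% of all genes rose and 20.4% fell. In that fit 24 of 49 DNA replication genes fell and 5 rose, and 28 of 45 genes of G2/M and mitosis fell and 2 rose. Of 25 heat shock chaperones 14 fell and 1 rose. Of 30 cholesterol genes 15 rose and 5 fell, and of 20 basement membrane genes 11 fell. Of 32 interstitial matrix genes 8 rose and 16 fell, and of 29 receptor tyrosine kinases 5 rose and 15 fell. Of 43 interferon-induced genes 10 rose and 13 fell. Of 17 BCL2 family genes 1 rose and 9 fell, and of 76 ribosomal proteins 2 rose and 23 fell. Of 24 endoplasmic reticulum chaperones 1 rose and 15 fell. Against siControl with all libraries 4 of them rose and 7 fell, beside 18.7% and 22.0% of all genes.

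Growth factor signalling genes fell more often than they rose. Of 29 receptor tyrosine kinases 5 rose, 17 fell and 7 had no call, while 17.6% of all genes rose and 20.6% fell. All 17 also fell against siControl, and the median log2 change of the list was -0.41. INSR, the insulin receptor, had 5.23, 6.17 and 6.12 CPM in the double knockdown, against 15.5, 16.0 and 12.3 CPM in siControl_2 (log2 change -1.32, SE 0.15, adjusted p = 3.2e-07). AXL, the GAS6 receptor counted among YAP targets, had 276, 269 and 225 CPM in the double knockdown, against 595, 592 and 549.7 CPM in siControl_2 (log2 change -1.17, SE 0.08). EGFR changed little against siControl_2, at 73.5, 71.3 and 63.9 CPM in the double knockdown and 76.4, 82.1 and 85.7 CPM in siControl_2 (log2 change -0.23, adjusted p = 0.0164). Of 18 ERK feedback genes 10 fell, 5 of them against both control sets, and by edgeR 0 rose (1 at an unadjusted p under 0.05 and 0 with DESeq2). ETV5, a transcription factor induced by ERK signalling, had 29.9, 29.8 and 30.5 CPM in the double knockdown, against 119, 119.8 and 121 CPM in siControl_2 (log2 change -2.00, SE 0.07). SPRY4, a feedback inhibitor, had 142, 146 and 115 CPM in the double knockdown, against 286, 279.5 and 279 CPM in siControl_2 but 159.6, 143 and 153 CPM in siControl.

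Hedgehog pathway genes included 9 falls and, by edgeR, 0 rises among 17 tested, beside 20.6% and 17.6% of all genes. There were also 0 rises at an unadjusted p under 0.05 and with DESeq2. The 9 falls held against siControl and without library 3, while against siControl 3 rose and 10 fell. SMO, the signal transducer of the pathway, had 14.9, 16.2 and 11.0 CPM in the double knockdown, against 59.5, 52.9 and 56.6 CPM in siControl_2 and 35.3, 38.1 and 36.2 CPM in siControl (log2 change -2.00, SE 0.12, adjusted p = 2.1e-11). GLI2, its transcription factor, had 36.8, 36.8 and 21.2 CPM in the double knockdown, against 49.3, 58.0 and 58.8 CPM in siControl_2 (log2 change -0.81, SE 0.15). Of 21 Notch pathway genes 2 rose and 9 fell, but 6 rose and 9 fell without library 3, and 5 and 9 against siControl. HES4, a target of the pathway, had 2.47, 2.91 and 1.10 CPM in the double knockdown, against 6.64, 6.77 and 8.95 CPM in siControl_2. Among 37 axon guidance genes 9 rose and 17 fell, and SEMA7A above was opposed by PLXNA1, a semaphorin co-receptor, at 37.8, 32.2 and 31.9 CPM in the double knockdown, against 92.1, 88.6 and 79.9 CPM in siControl_2 (log2 change -1.36, SE 0.08). The median GC content of the Hedgehog list was 55.5% and that of the Notch list 55.5%.

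Glial identity genes changed in both directions. Of 12 astrocyte and glioma markers 2 rose and 7 fell (16.7% and 58.3%). Of 16 oligodendrocyte lineage genes 3 rose and 7 fell (18.75% and 43.75%). Over all genes 17.6% rose and 20.6% fell, so the shares that rose were near that of all genes. GFAP, the intermediate filament of astrocytes, was low but rose, at 8.77, 8.29 and 7.76 CPM in the double knockdown, against 1.43, 2.06 and 1.53 CPM in siControl_2 (log2 change 2.30, SE 0.25, adjusted p = 1.7e-07). NES, the progenitor filament nestin, fell, at 395, 401 and 283 CPM in the double knockdown, against 829, 843 and 773 CPM in siControl_2 (log2 change -1.18, SE 0.09). SOX9, a gliogenic factor, was counted at 2, 4 and 5 reads in the double knockdown, against 53, 32 and 51 reads in siControl_2 (log2 change -3.91, SE 0.44). CSPG4, the progenitor proteoglycan NG2, had 220.0, 194 and 129 CPM in the double knockdown, against 723, 669.9 and 603 CPM in siControl_2 and 309, 297 and 296 CPM in siControl. MYRF, a factor needed for myelin gene expression, rose, at 25.4, 18.7 and 18.2 CPM in the double knockdown, against 8.90, 7.43 and 10.1 CPM in siControl_2 (log2 change 1.24, SE 0.15). Of the oligodendrocyte genes 8 were higher and 1 lower in siControl_2 than in siControl, so the list's median, -0.37 against siControl_2, was 0.08 against siControl.

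Genes of ribosome production, the process that ZNF593 is linked to, gave mixed counts. Of 76 cytosolic ribosomal proteins 2 rose and 20 fell (2.6% and 26.3%), beside 17.6% and 20.6% of all genes. Their median log2 change was -0.12. Against both control sets 8 fell (10.5%), beside 15.9% of all genes. RPL22 had 26.3, 29.2 and 31.2 CPM in the double knockdown, against 49.0, 45.2 and 44.7 CPM in siControl_2 (log2 change -0.68, SE 0.09). Of 38 factors for assembly and export of the large subunit precursor 10 rose and 5 fell, but 3 rose and 14 fell against siControl, so the balance depended on the control set. Of 34 small subunit and RNA polymerase I factors 5 rose and 8 fell, 6 and 4 with upper-quartile scaling, and 4 rose and 18 fell against siControl. Of 59 nuclear-encoded genes of oxidative phosphorylation 6 rose and 10 fell, below the share over all genes in both directions. Other lists had no clear balance: 8 of 25 YAP/TEAD targets rose and 9 fell, and 6 of 21 iron genes rose and 6 fell. Of 30 hypoxia and glycolysis genes 3 rose and 12 fell, but 5 and 10 without library 3 and 7 and 9 with upper-quartile scaling. Of 26 immediate early genes 5 rose and 11 fell. Of 13 mitochondrially encoded mRNAs 2 fell against siControl_2 while 4 rose against siControl, and 1 of 9 neuron markers moved each way.

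Redox and iron genes differed between the double and the single knockdowns. Among 28 NRF2 targets, 18 rose and 0 fell with siZFX alone by edgeR (0 also at an unadjusted p under 0.05). Over all genes 13.8% rose and 17.1% fell with siZFX. With siZNF593 alone 1 rose and 17 fell, beside 12.2% and 14.6% of all genes. In the double knockdown 7 rose and 8 fell (25.0% and 28.6%), beside 17.6% and 20.6% of all genes. With upper-quartile scaling these counts were 9 and 6. The double knockdown's counts depended on the control set and on library 3. Against siControl 3 rose and 11 fell, beside 18.7% and 22.0% of all genes. Without library 3, 11 rose and 8 fell, beside 17.9% and 20.4%. NQO1, a quinone reductase, had 633, 672 and 647 CPM in the double knockdown, against 1291, 1151 and 1182 CPM in siControl_2 (log2 change -0.89, SE 0.06, adjusted p = 2.6e-10). Its log2 change was 0.76 with siZFX and -1.78 with siZNF593, and the double effect differed from each, by -1.65 (adjusted p = 1.3e-11) and 0.89 (adjusted p = 6.5e-07). TKT, transketolase, had the same order, with log2 changes of -0.83 in the double knockdown, 0.53 with siZFX and -1.52 with siZNF593. FTL, the ferritin light chain, a gene with processed copies elsewhere in the genome, rose in all 3, at 2735, 2599 and 2257 CPM in the double knockdown, against 1704, 1372 and 1490.3 CPM in siControl_2 (log2 change 0.73, SE 0.08). TFRC, the transferrin receptor, had 102, 109 and 129.8 CPM in the double knockdown, against 345, 346 and 345 CPM in siControl_2. TFRC fell by 1.60 on the log2 scale in the double knockdown and by 2.84 with siZNF593, a difference of 1.23 (adjusted p = 1.1e-07), and had no call with siZFX (0.18).

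Across all genes, the double knockdown shared calls with both single knockdowns. The singles are set against siControl and the double against siControl_2, so no control library is shared between them. Of the 3635 genes that fell in the double knockdown, 48.1% also fell with siZFX and 40.2% with siZNF593, beside 17.1% and 14.6% of all genes; the same genes are 57.9% of the siZFX falls and 56.7% of the siZNF593 falls. Of the 3117 that rose, 38.4% also rose with siZFX and 38.4% with siZNF593, beside 13.8% and 12.2%; they are 49.1% and 55.3% of the single lists. In neither single knockdown were 29.3% of the falls and 38.0% of the rises called in that direction. A missing call is not a difference, so the effects were compared in the same fit; such a difference also contains the difference between the 2 control sets. Over all genes, 17.7% of double effects differed from the siZFX effect and 16.6% from the siZNF593 effect. Of the 920 falls of at least 2-fold, 270 were called in neither single knockdown, and 52 of these differed from both single effects. Of the 573 rises of at least 2-fold, 281 were called in neither and 29 of these differed from both. Requiring the same call against siControl left 149 such falls and 125 such rises, of which 36 and 15 differed from both.

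TNFAIP2 was the only one of the 15 leading falls with no call in either single knockdown, at log2 changes of 0.08 with siZFX and 0.15 with siZNF593. Its double effect differed from them by -4.15 (SE 0.31, adjusted p = 2.5e-09) and -4.22 (adjusted p = 1.7e-08). TNFAIP2 was itself higher in siControl_2 than in siControl, by 1.31 on the log2 scale, and against siControl the double effect was -2.76. PLPPR4 held the same place among the rises, at 0.16 with siZFX and 0.84 with siZNF593, and differed from them by 2.28 (adjusted p = 0.00293) and 1.60 (adjusted p = 0.0311). PLXNA1 changed by 0.08 with siZFX and 0.02 with siZNF593, with no call, and by -1.36 in the double knockdown, -1.45 against siControl. CXCL1 and CXCL8 fell with each single knockdown. For CXCL1 the double effect was -5.34 against siControl_2 but -3.64 against siControl, beside -1.78 with siZFX and -3.47 with siZNF593. For CXCL8 the double effect of -4.41 stood beside -1.36 with siZFX and -2.07 with siZNF593. Against siControl it was -2.77, which is nearer to the single effects.

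Some other genes followed 1 of the 2 siRNAs, among them the leading genes SLC39A14, FBXO44 and FGFBP3. SLC39A14 changed by -2.47 in the double knockdown, -2.69 with siZNF593 and -0.11, not called, with siZFX, and the double effect did not pass the test of a difference from siZNF593 (0.22, adjusted p = 0.235). FBXO44 changed by -2.47 in the double knockdown, -2.76 with siZFX and -0.19, not called, with siZNF593, with a difference from siZFX of 0.30 (adjusted p = 0.7). HSPB8 changed by -2.51 with siZFX, and its double effect was not called different (0.16, adjusted p = 0.713). FGFBP3, which encodes a carrier of fibroblast growth factors, rose with siZNF593 (1.67) and in the double knockdown (1.78) but fell with siZFX (-0.79). ETV5 and AXL fell further with siZNF593 alone, by -2.68 and -2.25, than in the double knockdown, by differences of 0.68 (adjusted p = 4.8e-05) and 1.07 (adjusted p = 9.7e-07). A p that misses the threshold does not show that 2 effects are equal.

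**Figure D5:**
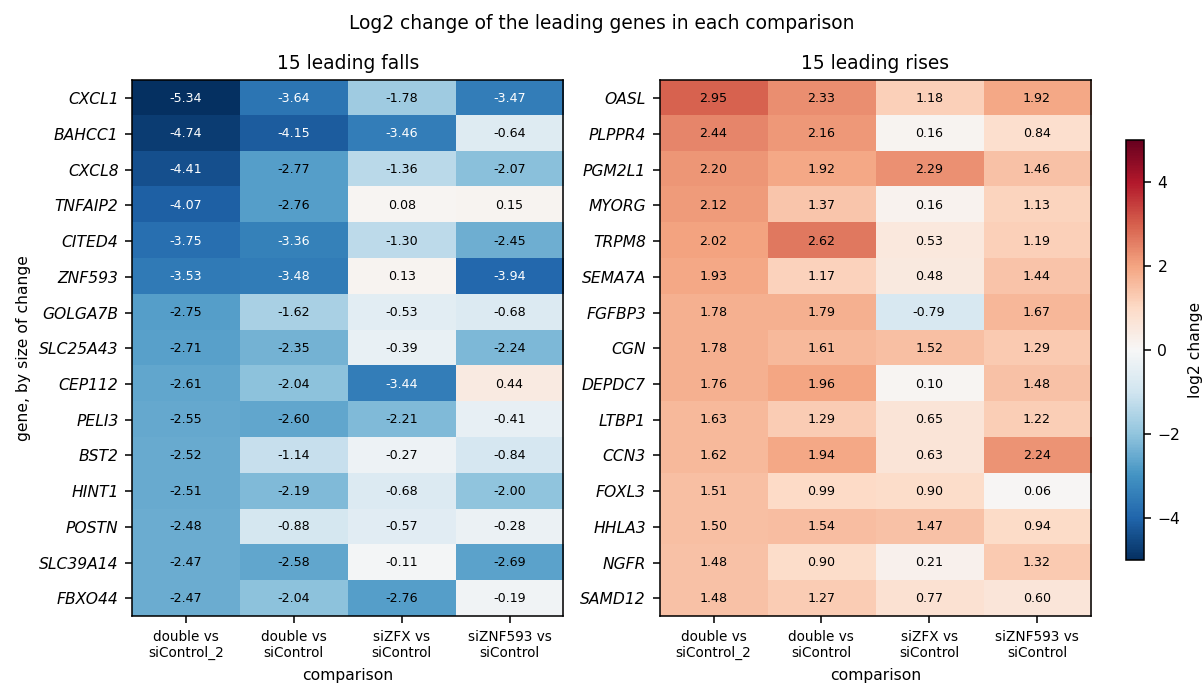
Log2 changes of the 15 leading falls (left) and 15 leading rises (right) in 4 comparisons, given as colours and numbers, with the double knockdown against siControl_2 first. TNFAIP2 is near 0 in both single knockdowns and FGFBP3 is the rise with a negative value under siZFX.

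The AGGCCT letters, the core of the reported ZFX motif, read the same on both strands and were not more frequent near the starts of genes that fell. They occurred in the windows of 10.8% of all tested genes with a RefSeq window, in 10.8% of those that fell, in 11.6% of those that fell with siZFX as well and in 9.46% of those that rose. The windows hold only 50 bases downstream of the start.

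By annotated class, 2660 of 13533 protein-coding genes rose (19.7%) and 3440 fell (25.4%), while 371 of 3023 long non-coding genes rose (12.3%) and 128 fell (4.23%). The median log2 change was -0.036 for protein-coding and 0.247 for long non-coding genes. Against siControl the long non-coding counts were 422 and 134, and without library 3 they were 379 and 118. The median level of these genes was 0.839 CPM, and 45.8% of them overlap another gene, which unstranded counts cannot separate. Protein-coding genes that rose were longer and lower in GC than those that fell, with a median span of 49.4 kb against 30.7 kb and a median GC content of 43.1% against 53.01%; over all tested protein-coding genes these were 33.6 kb and 48.2%. These medians were not recomputed without double knockdown library 3, whose deviation followed GC content as described above.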

How the data were processed

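The authors deposited raw gene counts per library in the layout of STAR's gene output. The submitters' processing notes name STAR, HTSeq, DESeq2 and GRCh38 without versions. Per the labels' protocols, total RNA was taken by trizol and libraries were made with a NEBNext Ultra II kit. The unstranded column was used; ZNF593, which is 0 there in all libraries, was summed over the 2 stranded columns. Reads of overlapping genes therefore cannot be told apart.

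Symbols and coordinates came from GENCODE 29. edgeR 4.0.16 in R 4.3.3 (robust quasi-likelihood, TMM, filterByExpr) was fitted to the 15 LN-229 libraries with 1 coefficient per group, adjusting p over all genes of a comparison. Standard errors were obtained from the F statistic as |log2 change|/sqrt(F), and CPM use TMM-scaled totals. The fit was tested on simulated data. Named genes were the 2 targets, the 15 largest called changes each way among protein-coding genes averaging 5 CPM or more across the 6 libraries, with groups apart and the same call against siControl, up to 5 per list, and members that bear on a list. The members and lists were chosen with earlier results of these data known, and tests of differences between double and single effects were added later. Alternatives covered scaling, filters, DESeq2 1.42.0, control sets, GC and length, and each library left out.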

Additional observations from a re-analysis of the deposited data

How the results depend on the processing

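The counts of 3117 rises and 3635 falls stayed within 1.5 times their size under the other scalings, filters, tools and left-out libraries, and became 1362 and 1974 when a change of at least 1.5-fold was required. Leaving out each library in turn gave 2618 to 3355 rises and 2991 to 3720 falls. The lowest counts of a refit came from only the 6 libraries compared, with 2260 rises and 2504 falls. In that fit 12 values of genes named by rule lost the call. The larger number of falls turned with upper-quartile scaling (3805 rises and 3135 falls) and with the larger stranded column (3747 and 3550). A GC and length correction gave 3232 and 4105, DESeq2 3304 and 3782. With the replicate block there were 3091 and 3698 calls, with log2 changes of -1.01 for ZFX and -3.53 for ZNF593. Same-numbered libraries did not visibly deviate together (correlations -0.007, -0.004 and 0.044), which does not settle whether the numbers pair the samples. Of the recomputed values of named genes, 3088 kept direction and call, 152 lost the call and 18 changed sign. Among the genes chosen by rule, the log2 changes that turned with siControl in place of siControl_2 were NFKBIZ 0.31, IFITM1 0.72, LAMA5 0.083, STC2 -0.33, NIP7 -0.038, MT-CO2 0.16, BCL2A1 0.28 and MAP2 0.14, and among other called genes named in the text ICAM1, PTGS2, BIRC3, C3 and CCL2 turned too. Without library 3 as well, a setting chosen after seeing the data, they were NFKBIZ 0.36, IFITM1 1.18, LAMA5 0.31, STC2 -0.16, NIP7 -0.18, MT-ND6 0.054, MT-CO2 0.32, BCL2A1 0.12, SPRY1 0.086 and MAP2 0.11. The cause was not tested. Differences under 2-fold in genes of a few CPM are near what 3 libraries per group can show.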
